A study of Homo sapiens with 4 samples.

Results

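The regions described here were the peaks of A3B (APOBEC3B) on chromosome 3, 5080 of the 56167 peaks called in OMM2.3 cells and 6960 of the 136678 called in 92.1 cells. They were chosen by position alone, as every deposited peak on that chromosome of GRCh38. Peaks that ended before a boundary at 90.9 Mb were put on the short arm and those that started from there on were put on the long arm, and 0 peaks lay across that boundary. The short arm held 2458 peaks of OMM2.3 and 2176 of 92.1, and the long arm held 2622 and 4784.

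Both lines are established uveal melanoma lines, OMM2.3 from a liver metastasis and 92.1 from a primary tumour of the eye. Untreated, formaldehyde-fixed cells of each line were subjected to chromatin immunoprecipitation and sequencing (ChIP-seq) with an antibody against A3B or with normal rabbit IgG, which gave 4 groups of 1 library each. Peaks of each A3B library were called once, against the IgG library of its own line. Each line stands for itself only, no A3B-depleted library was analysed here, and no test between the lines was possible with 1 library per group. Intervals below are 95% intervals for counting error only (exact Poisson for densities, exact conditional for ratios, Wilson for shares), and neighbouring peaks are not independent replicates.

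A3B is a nuclear cytidine deaminase that turns cytosine into uracil in single-stranded DNA, mostly where a thymine precedes the cytosine. The study asked how it relates to replication stress and to R-loops, RNA-DNA hybrids that expose such a strand. Chromosome 3 is the chromosome whose loss marks uveal melanomas that spread, and its short arm carries BAP1, the deubiquitinase gene that is commonly inactivated in those tumours. The copy number of chromosome 3 in these lines is not given in the sources used here.

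Few peaks of chromosome 3 had a q-value of at most 0.05. Most 32-base words at the summits of OMM2.3 had another exact copy in the genome, and most at those of 92.1 did not. The sequences below (GRCh38, plus strand) show the strongest peak of OMM2.3, the 2 strongest of 92.1, a single-copy region called in both lines, and the strongest peak in MITF, described further on. TCA and TCT, the contexts in which A3B prefers its cytosine, and their reverse complements TGA and AGA are in capitals.
OMM2.3, strongest peak, chr3:91083225-91083449: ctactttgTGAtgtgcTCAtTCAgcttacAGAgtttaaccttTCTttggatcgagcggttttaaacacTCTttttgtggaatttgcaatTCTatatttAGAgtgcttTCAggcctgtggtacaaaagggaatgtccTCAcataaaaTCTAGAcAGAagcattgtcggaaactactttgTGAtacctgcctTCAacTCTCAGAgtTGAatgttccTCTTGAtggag
92.1, strongest peak, its central part, chr3:93470480-93470680: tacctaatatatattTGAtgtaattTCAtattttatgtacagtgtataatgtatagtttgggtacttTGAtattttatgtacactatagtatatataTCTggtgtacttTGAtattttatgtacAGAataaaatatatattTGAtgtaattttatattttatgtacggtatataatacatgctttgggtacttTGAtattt
92.1, next strongest peak, chr3:152228759-152229018: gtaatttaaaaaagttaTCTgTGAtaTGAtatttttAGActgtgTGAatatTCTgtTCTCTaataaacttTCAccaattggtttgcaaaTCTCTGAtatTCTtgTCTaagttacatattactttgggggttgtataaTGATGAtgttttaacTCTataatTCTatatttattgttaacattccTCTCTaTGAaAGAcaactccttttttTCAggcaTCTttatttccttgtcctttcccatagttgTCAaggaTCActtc
Overlap of an OMM2.3 and a 92.1 peak, chr3:6115769-6115876: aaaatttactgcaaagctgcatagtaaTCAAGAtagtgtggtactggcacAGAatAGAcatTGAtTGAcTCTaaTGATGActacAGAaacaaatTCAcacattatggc
92.1, strongest peak in MITF, chr3:69836891-69837113: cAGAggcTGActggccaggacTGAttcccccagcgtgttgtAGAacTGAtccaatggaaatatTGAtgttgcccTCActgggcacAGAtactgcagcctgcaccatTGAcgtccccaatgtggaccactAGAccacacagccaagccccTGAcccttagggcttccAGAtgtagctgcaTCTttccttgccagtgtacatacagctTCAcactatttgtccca

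In OMM2.3, 5 peaks had a q-value of at most 0.05 (0.0984%, 0.0420 to 0.230), against 0.351% of all autosomal OMM2.3 peaks. All 5 lay within 3 Mb of the arm boundary in intergenic sequence. The strongest, at chr3:91083225-91083449, had 38 A3B fragments over an IgG background of 9.0, with a fold enrichment of 3.40 and a −log10 p of 9.23. The peak at chr3:90835862-90836123 had 29 fragments over 6.0, and its longest run of letters in common with that at chr3:90803749-90803987 was 92 bp. The latter and the peak at chr3:91115211-91115435 had 17 fragments each over 3.0. The peak at chr3:92377908-92378354 had 11 fragments over 1.12. At each of the 5 summits at least 81.4% of the 32-base words occurred more than once in the genome. Around the strongest, 60.6% of bases in 2 kb equalled the base 340 bp further on, as in a tandem array. Human centromeres are embedded in long arrays of such tandem satellite DNA, and reads from these copies cannot be placed with certainty.

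In 92.1, 2 peaks reached that q (0.0287%, 0.00788 to 0.105), against 0.149% of all autosomal 92.1 peaks. The first, at chr3:93470455-93470755, stacked 401 fragments over a background of 236, so its −log10 p of 22.1 came with a fold enrichment of only 1.69. The floor of the 92.1 background, described below, was 0.877 fragments. The sequence of this peak was AT-rich, with 21.4% GC, and only 9.30% of its 32-base words were repeated. That share counts exact copies only and misses copies that differ by some bases. It does not show that reads were placed there with certainty. The second, at chr3:152228759-152229018, had 8 fragments over 0.903, a fold enrichment of 4.73 and a −log10 p of 6.31. It lay 14810 bp from a start site of MBNL1, which encodes a splicing regulator. The next peak, at chr3:92488204-92488598, had 10 fragments and a q of 0.0755, and lay in the same kind of repeat as those of OMM2.3, with 52.1% of bases equal to the base 339 bp further on. Behind these, 30 peaks of 92.1 were tied at 7 fragments and a −log10 p of 5.40. They included introns of WNT7A, a Wnt ligand gene, at chr3:13833538-13833860 and of NEK11, a cell cycle kinase gene, at chr3:131092474-131092812.

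A p of at most 1e-05 was met by 10 OMM2.3 peaks, 0.197% against 0.728% over the autosomes, and 50 peaks of 92.1, 0.718% against 0.853%. Of the 10, 8 lay within 3 Mb of the arm boundary. Of the 50, only 5 did, and 37 lay on the distal long arm, defined below. The median peak of chromosome 3 rested on 6 fragments in OMM2.3 and 4 in 92.1, numbers recovered from the deposited fold enrichment and p. A smaller scaling with proportionally more fragments would give the same values in 92.1. Thus nearly all peaks below are weak, and the account rests on their number along the chromosome rather than on single peaks.

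Chromosome 3 ranked differently in the 2 lines. Its density in OMM2.3 was 25.6 peaks per Mb outside assembly gaps (24.9 to 26.4), 1.31 times that of the other autosomes pooled (1.27 to 1.35), and 6 of 21 other autosomes were denser. In 92.1 it was 35.1 per Mb (34.3 to 36.0), 0.705 times that of the others (0.688 to 0.722), and 18 of 21 were denser. Between the lines, 92.1 to OMM2.3, the density ratio was 1.37 (1.32 to 1.42), against 2.55 over the other autosomes (2.53 to 2.58). Only chromosomes 22, at 1.27, and 2, at 1.33, had a lower ratio, and chromosome 20 had the same value to 2 decimals. The highest was 5.02, on chromosome 9.

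**Figure D1:**
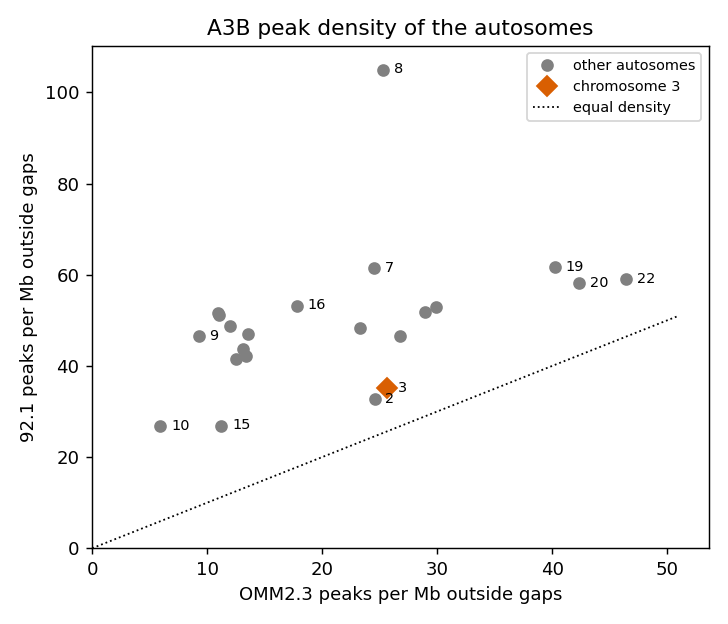
Peaks per Mb outside gaps in OMM2.3 (horizontal axis) and 92.1 (vertical axis), 1 point per autosome with some chromosome numbers beside them and 1 library per line. Chromosome 3 (diamond), at 25.6 and 35.1 per Mb, sits beside chromosome 2 and nearer to the dotted line of equal density than most autosomes.

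The arms split the lines further. The short arm had 27.1 peaks per Mb in OMM2.3 (26.0 to 28.2) and 24 in 92.1 (23 to 25), so the line with more peaks genome-wide had fewer there. On the long arm the densities were 24.4 in OMM2.3 (23.5 to 25.4) and 44.6 in 92.1 (43.3 to 45.9). The short to long arm ratio was therefore 1.11 in OMM2.3 (1.05 to 1.17) and 0.537 in 92.1 (0.510 to 0.565). Set against OMM2.3, the density of 92.1 was 0.885 times as high on the short arm (0.835 to 0.938) and 1.82 on the long arm (1.74 to 1.91).

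The change in 92.1 did not fall at the arm boundary but within the long arm. The counts of 92.1 in 1 Mb windows were best divided into 2 blocks at position 127000001, and 100 kb windows placed the division at 126900001, both near PLXNA1, a semaphorin receptor gene at chr3:126982693-127037389. The stretch before the division, short arm included, had 23.9 peaks per Mb in 92.1 (23 to 24.7), and the stretch from there to the end, called the distal long arm here, had 55.2 (53.5 to 56.9), a ratio of 2.31 (2.21 to 2.43). The division was placed by these same counts, so its size in 92.1 is a description. OMM2.3, whose counts did not place it, had 26.5 per Mb before it and 24.2 after, a ratio of 0.915 (0.863 to 0.970). Its own best division, at 76000001, was from 29.0 to 23.6 per Mb.

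The rise took place over a few windows. In the 5 windows of 1 Mb before the division 92.1 had 24 to 42 peaks, and OMM2.3 had 33 to 38. In the 5 windows after it 92.1 had 47 to 85 and OMM2.3 28 to 55. With the same search on each autosome, the division of chromosome 3 ranked 6 of 22 by size in 92.1 and 20 of 22 in OMM2.3, so divisions of this size were not particular to chromosome 3 in 92.1. Before the division the 25 windows of 5 Mb had 17.6 to 34.3 peaks per Mb in 92.1 (median 22.2), and the 15 windows after it had 42.4 to 62.2 (median 56.6), with no overlap. The first of these 15 started at 125000001, so it also took in the last 2 Mb before the division, where 92.1 had 24 and 33 peaks. The OMM2.3 windows overlapped almost wholly, at 15.4 to 42.4 (median 25.4) and 14.4 to 40.4 (median 24.6).

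**Figure D2:**
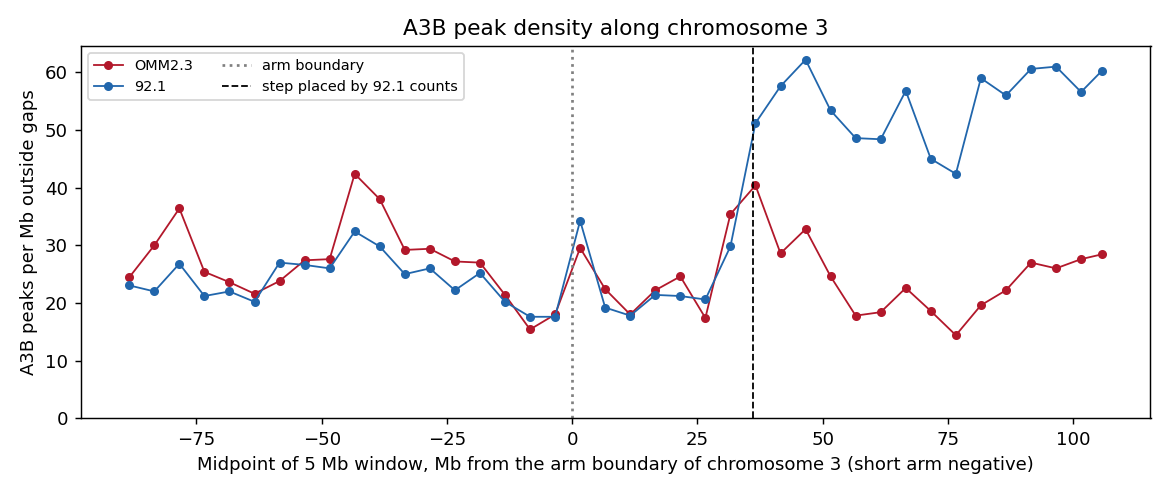
A3B peaks per Mb outside gaps in windows of 5 Mb along chromosome 3, by distance of the window's midpoint from the arm boundary, 1 library per line. The 92.1 windows sit between 17.6 and 34.3 before the dashed line and between 42.4 and 62.2 after it, while the OMM2.3 windows cover a like range on both sides.

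The typical 92.1 peak was alike in strength on both sides of the division, in values that take few distinct levels. The median fold enrichment of 92.1 peaks was 2.66 and the median −log10 p 2.68 on the short arm and on both parts of the long arm, and the median number of fragments was 4 on each. Strong peaks were not spread alike, since 13 of the 3028 peaks before the division and 37 of the 3932 after it had a p of at most 1e-05. Peaks of 92.1 covered 0.649% of the sequence before the division and 1.59% after it. Those of OMM2.3 covered 0.776% and 0.696%.

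The IgG background of the 92.1 peaks changed at the same place. MACS2 uses the genome-wide mean of IgG as a floor and replaces it where local IgG is higher. Of the 92.1 peaks before the division, 74.2% were at that floor (72.7 to 75.8), and after it 45.8% (44.2 to 47.3). In OMM2.3 the shares were 35.5% (33.9 to 37.2) and 34.8% (32.6 to 37.1). By 5 Mb windows the 92.1 share ran from 28.7% to 88.6% before the division (median 79.2%) and from 29.2% to 63.7% after it (median 46.1%). Thus, at called 92.1 peaks, local IgG exceeded the genome-wide mean more often after the division, where peaks were denser. IgG away from called peaks cannot be read from peak lists. The part of the IgG background in the density of peaks was not tested.

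**Figure D3:**
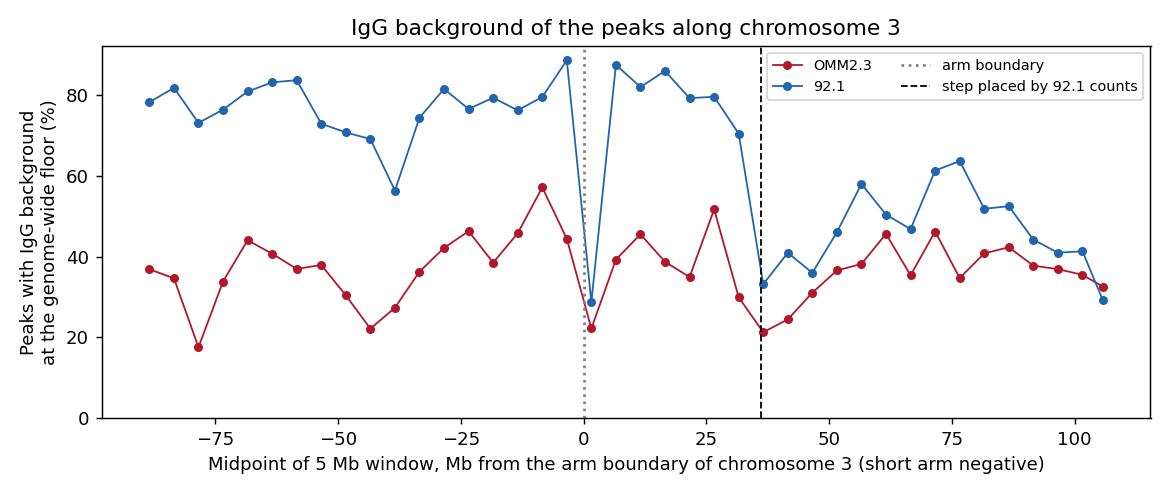
Share of peaks (%) whose IgG background was at the genome-wide floor, in windows of 5 Mb along chromosome 3, 1 library per line. The 92.1 share fell after the dashed line, from a median of 79.2% to 46.1%, and was 28.7% in the window next to the arm boundary, while OMM2.3 stayed between 17.6% and 57.1% throughout.

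Windows of 1 Mb were then compared between the lines. Of 199 windows, 197 had at least 0.5 Mb outside gaps and at least 20 peaks over both lines. The ratio of 92.1 to OMM2.3 was lower than the autosomal ratio of 2.44 by 2-fold or more in 106 of them (53.8%), against 17.1% of all 2590 autosomal windows. It was higher by 2-fold or more in 1 (0.508%), against 26.3% of autosomal windows. The low windows were those before the division, 105 of 126 there and 1 of 71 after it. The 1 after it, at 128000001 to 129000000, had 55 OMM2.3 peaks and 67 of 92.1. In 82 of the 126 windows 92.1 had fewer peaks than OMM2.3, and in 38 it had more. In all 71 windows after the division it had more, with a median ratio of 2.32 against 0.887 before. Over whole stretches the ratio was 0.902 (0.859 to 0.948) before the division and 2.28 (2.15 to 2.41) after it, the latter near the 2.55 of the other autosomes.

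**Figure D4:**
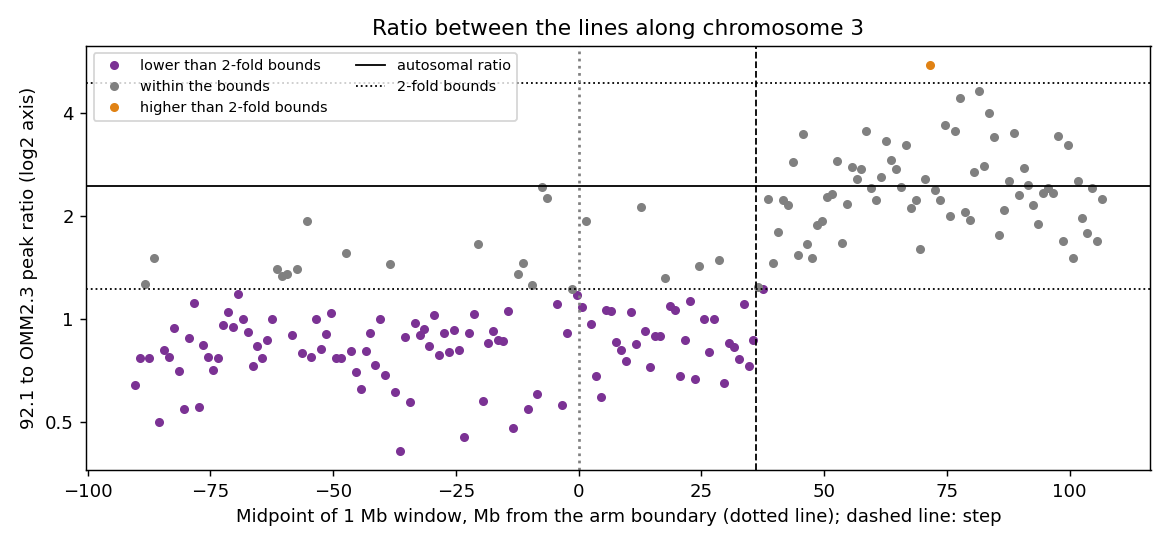
Ratio of 92.1 to OMM2.3 peaks (log2 axis) in the 197 windows of 1 Mb, by distance from the arm boundary, with the autosomal ratio of 2.44 (solid line) and its 2-fold bounds (dotted lines). Windows before the dashed line centre on 0.887 and 105 of 126 lie under the lower bound, and windows after it centre on 2.32.

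The 5 windows with the lowest ratio were all on the short arm. That at 54000001 to 55000000 had 39 OMM2.3 peaks and 16 of 92.1, and is filled largely by CACNA2D3, a calcium channel subunit gene. The window at 67000001 to 68000000, with SUCLG2, a mitochondrial enzyme gene, had 31 and 14. That at 77000001 to 78000000, with ROBO2, an axon guidance receptor gene, had 25 and 12. The windows at 5000001 to 6000000 and 10000001 to 11000000 had 32 and 16, and 46 and 25, the latter with FANCD2 and VHL. The 5 with the highest ratio were all distal. The window at 162000001 to 163000000 held no protein-coding gene and had 8 OMM2.3 peaks and 44 of 92.1. Those at 172000001 to 173000000, with ECT2, and 168000001 to 169000000, with GOLIM4, had 16 and 74, and 12 and 53. The windows at 174000001 to 175000000 and 165000001 to 166000000 had 17 and 68, and 9 and 33.

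Within each stretch the windows of the 2 lines varied together, as a description over windows that share base composition. Over the 126 windows before the division Pearson's r between the lines was 0.53, over the 71 after it 0.54, and over all windows of the chromosome 0.16. Density went with GC content in both lines. In OMM2.3 r with GC was 0.78 on either side of the division and also over the whole chromosome. In 92.1 it was 0.53 before and 0.64 after the division and 0.27 over the whole. The GC content was 39.8% before the division and 39.5% after it.

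Summit sequence was richer in GC than the chromosome, more so in OMM2.3. Mean GC within 100 bp of the summit was 44.4% in OMM2.3 (SE 0.119 over 5080 peaks) and 41.4% in 92.1 (SE 0.106 over 6960 peaks), against 39.7% over all such windows of the chromosome. The A3B contexts TCA and TCT, counted on both strands with overlaps allowed, numbered 16.7 per summit window in OMM2.3 and 16.9 in 92.1, against 16.9 over the chromosome. The 5 OMM2.3 peaks with a q of at most 0.05 had 22 and the 2 of 92.1 had 13.5. Runs that could fold into a G-quadruplex (4 runs of GGG with 1 to 7 bases between, either strand) occurred in 2.15% of OMM2.3 and 2.03% of 92.1 windows, against 1.60% of the chromosome. No summit window held 3 tandem copies of GGAAT, a satellite unit. Sequence was mostly repeated at 18.2% of OMM2.3 and 12.9% of 92.1 summits on chromosome 3, against 23% and 14.7% on the other autosomes.

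Few regions were called in both lines. Of the OMM2.3 peaks, 115 (2.26%, 1.89 to 2.71) met a peak of 92.1 by at least 1 bp, which is 1.65% of the 92.1 peaks (1.38 to 1.98). On the other autosomes, where 92.1 had 49.8 peaks per Mb against 35.1 on chromosome 3, 3.76% of OMM2.3 peaks did (3.60 to 3.93). The share was 1.61% before the division (1.24 to 2.09) and 3.54% after it (2.76 to 4.52), where 92.1 had more peaks to meet. Peaks of 92.1 covered 0.987% of the chromosome, and an overlap of 1 bp was enough, so some peaks meet by position alone. The share expected in that way was not worked out, so the pairs below are not shown to be shared sites. The pair whose weaker member was strongest lay in an intron of ACAD11, which encodes an acyl-CoA dehydrogenase, at chr3:132632030-132632273, with 7 and 6 fragments, in repeated sequence. The pairs at chr3:6115769-6115876, in an intron of a long non-coding RNA, and at chr3:26185000-26185115, between genes, had 7 OMM2.3 and 5 92.1 fragments in single-copy sequence. The pairs in introns of WDR48, which encodes a cofactor of deubiquitinases, at chr3:39067439-39067510 and of MGLL, the monoacylglycerol lipase gene, at chr3:127858035-127858085 had the same numbers. Of the 5 OMM2.3 peaks with a q of at most 0.05, 0 were counted as shared (0%, 0 to 43.4). The 2 peaks of 92.1 at that q were not counted separately.

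Peaks near transcription start sites were somewhat more frequent than sequence near start sites. Within 3 kb of a start site lay 17.3% of OMM2.3 peaks (16.3 to 18.3) and 19.5% of 92.1 peaks (18.6 to 20.5), against 15.5% of the sequence of the chromosome. Both were under the shares of the other autosomes, 21.8% and 21.2%, for which the share of sequence near start sites was not computed. On the short arm the shares were 17.7% and 18.2%, against 14.7% of its sequence. On the distal long arm they were 17.9% (16.1 to 19.7) and 20.9% (19.6 to 22.2), against 17.2% of its sequence.

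Genes carried the same pattern. Of 1081 protein-coding genes of chromosome 3 (GENCODE 44), 760 (70.3%) had an OMM2.3 peak in the gene or within 3 kb of it and 809 (74.8%) had a 92.1 peak. On the distal long arm these were 69.5% and 84.6% of 390 genes, with a median of 1 and 3 peaks per gene. On the short arm they were 71.6% and 68.0% of 510. Of 61 genes in 4 lists of tumour suppressors, DNA replication and repair genes, oncogenes and long genes, 48 (78.7%) had an OMM2.3 peak and 53 (86.9%) a 92.1 peak, to be read against the 70.3% and 74.8% of all protein-coding genes and the length of many listed genes. Of the 25 listed genes on the distal long arm, 92.1 had more peaks in 16, OMM2.3 in 4, and 5 were equal. Of the 31 on the short arm, each line had more in 13. Per 100 kb, the distal genes had 1.72 peaks in OMM2.3 and 4.86 in 92.1, and the short arm genes 2.3 and 2.13.

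**Figure D5:**
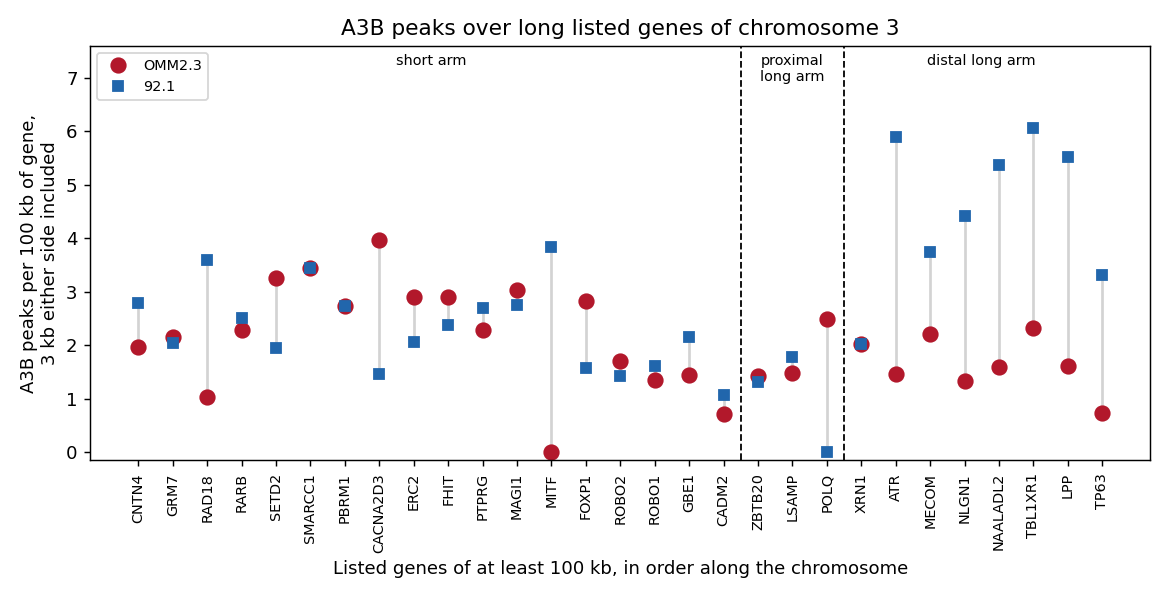
A3B peaks per 100 kb of gene (3 kb either side included) in OMM2.3 (circles) and 92.1 (squares) over the 29 listed genes of at least 100 kb, in order along chromosome 3. In 7 of the 8 distal genes 92.1 lies above OMM2.3, at up to 6.06 per 100 kb in TBL1XR1, while the genes before the division show no such order.

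Among the tumour suppressor and chromatin genes, all on the short arm, 12 of 14 (85.7%) had a peak in each line. Of all protein-coding genes of the short arm, 71.6% had one in OMM2.3 and 68.0% in 92.1, with gene length not matched. BAP1, at chr3:52401008-52410008, had no OMM2.3 peak. Its only 92.1 peak had 4 fragments and lay outside the gene, in an intron of its neighbour DNAH1, a dynein gene, in sequence of which 76.7% of 32-base words were repeated. VHL, whose product targets hypoxia-inducible factors for degradation, had 0 peaks in both lines. PBRM1, a subunit gene of a SWI/SNF remodeller, had 4 in each. SETD2, a histone H3 lysine methyltransferase gene, had 5 in OMM2.3 and 3 in 92.1. The long RARB, a retinoic acid receptor gene at chr3:24687887-25597932, had the most, 21 and 23, which is 2.29 and 2.51 per 100 kb. FOXP1, a forkhead transcription factor gene, had 18 and 10. These differences are of a few peaks each and were not tested.

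Of the DNA replication, repair and R-loop genes, 14 of 20 (70%) had an OMM2.3 peak and 16 of 20 (80%) a 92.1 peak. These shares were near the 70.3% and 74.8% of all protein-coding genes of chromosome 3. ATR, the replication stress kinase gene at chr3:142449007-142578733 on the distal long arm, had 2 OMM2.3 peaks and 8 of 92.1, 1.47 and 5.89 per 100 kb. All 10 were intronic, and the strongest, in 92.1, had 6 fragments and a −log10 p of 3.87. The distal long arm as a whole had 55.2 peaks per Mb in 92.1, so ATR was close to the level of its surroundings. Its binding partner ATRIP, on the short arm, had 2 and 1, and TOPBP1, an activator of ATR, had 3 in each. MCM2, a subunit gene of the replicative helicase, had 0 and 2. DHX36, a G-quadruplex helicase gene, had 0 and 4, and RFC4 and SMC4, for a clamp loader and a condensin subunit, had 0 and 2 each. FANCD2, of the Fanconi anaemia pathway, had 2 and 5, and RAD18, a ubiquitin ligase gene of damage tolerance, 2 and 7, although both lie on the short arm. POLQ, a repair polymerase gene on the proximal long arm, had 3 and 0. RUVBL1, an AAA+ helicase gene just past the division, had 6 and 4. MBD4, the glycosylase gene at which inherited loss predisposes to uveal melanoma, had 0 in both.

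Of the melanocyte and long arm oncogenes, 7 of 12 (58.3%) had an OMM2.3 peak and 10 of 12 (83.3%) a 92.1 peak. The shares of all protein-coding genes of chromosome 3 were 70.3% and 74.8%. MITF, the master transcription factor of melanocytes at chr3:69739456-69968336, was the only listed gene of this group on the short arm. It had 0 OMM2.3 peaks and 9 of 92.1, or 3.83 per 100 kb, all in introns, of 3 to 5 fragments each. A count of 0 in a library of unknown depth does not show that A3B was absent from MITF in OMM2.3. No interval was computed for these counts. The peak nearest a start site lay 687 bp from it, at chr3:69768783-69769086. PIK3CA, a lipid kinase gene, had 0 and 7, ECT2, a cytokinesis gene, 0 and 6, and ETV5, an ETS factor gene, 0 and 4. LPP, at chr3:188153284-188890671, which encodes an adhesion protein, had 12 and 41, or 1.61 and 5.52 per 100 kb. In 92.1 this was close to the 55.2 peaks per Mb of the whole distal long arm. MECOM, a leukaemia-associated zinc finger gene, had 13 and 22, and TP63, a p53 family gene, 2 and 9. SOX2, a pluripotency factor gene of 2.51 kb, had 1 and 0, and BCL6, a repressor gene, 0 in both.

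All 15 long genes had peaks in both lines, against 70.3% and 74.8% of all protein-coding genes. Other genes of like length were not compared. FHIT, a fragile-site gene at chr3:59747277-61251459 on the short arm, had 44 OMM2.3 and 36 92.1 peaks, 2.91 and 2.38 per 100 kb, all in its introns but 1 of 92.1, at chr3:61166865-61167184, which met an exon of FHIT. The strongest had 7 fragments in OMM2.3, and that in 92.1 with the highest −log10 p, 4.43, had 6. The short arm as a whole had 27.1 peaks per Mb in OMM2.3 and 24 in 92.1, so FHIT was close to the level of its arm. CACNA2D3 had 38 and 14, and ERC2, a presynaptic scaffold gene, 28 and 20. Of the 12 long genes before the division, OMM2.3 had more peaks in 7 and 92.1 in 5, among them CNTN4, a neural adhesion gene, with 19 and 27. In all 3 distal members 92.1 had more. NAALADL2, at chr3:174438573-175810548, had 22 and 74, NLGN1, a synaptic adhesion gene, 12 and 40, and TBL1XR1, a corepressor gene, 5 and 13. Together these 3 had 5.09 peaks per 100 kb in 92.1, near the 55.2 per Mb of the whole distal long arm. Of the listed genes, 4 had a 92.1 peak with a p of at most 1e-05 (NAALADL2, NLGN1, MAGI1 and RUVBL1) and 0 had such a peak in OMM2.3. Over chromosome 3, 0.718% of 92.1 peaks and 0.197% of OMM2.3 peaks met that p. The lists held 593 pairs of a 92.1 peak and a gene and 454 of OMM2.3. Genes outside the lists were not counted in this way, so the 4 are not shown to stand out.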

How the data were processed

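Peak lists of the A3B libraries of OMM2.3 and 92.1 were analysed. The members and gene lists were chosen with earlier results of these data known. After FastQC 0.11.9, the authors aligned reads to GRCh38 with Bowtie2 2.2.5, dropped PCR duplicates (Sambamba) and ran MACS2 2.2.7.1 on each A3B library against IgG at a p of 0.05. Filters on mapping quality or excluded regions are not given in the sources used here. As deposited, the score is 10 times −log10 p, cut to an integer. The fold enrichment the authors deposited is a ratio of stacked A3B fragments to IgG background, each raised by 1. MACS2 also gave each summit the deposited −log10 of its p-value and of its q-value.

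Fragments and background were recovered from fold and p (tolerance 0.002 in −log10 p) with the A3B scaling found from the values, 0.867 in OMM2.3 and 1 in 92.1. The arithmetic returned whole fragments for 100% of peaks to the nearest percent. Library totals are not in the peak lists, so the depth of a sample is unknown. Densities used sequence outside assembly gaps. A Poisson likelihood divided windows of 1 Mb into 2 blocks of at least 10 Mb. A summit was repeated if 50% or more of its 32-base words, taken every 4 bases within 100 bp, had another copy in the genome. Genes were those of GENCODE 44 (GRCh38). Named were the 5 strongest peaks per line, all those at a q of 0.05 or less, the 5 strongest shared pairs, the 5 windows at either end of the line ratio, BAP1, MITF, FHIT and ATR, and listed genes. Other listed genes named were chosen after their values were seen. Alternatives covered the peak threshold, repeated sequence, the arm boundary, GC, window size and fold, overlap, promoter and gene definitions. Those for the division in 92.1 were added after seeing the data. Steps were tested on simulated data. Python 3.11.15, numpy 2.4.6, scipy 1.17.1, pandas 2.3.3, pysam 0.24.0, numba 0.67.0 and matplotlib 3.10.9 were used. Some results are not reported here.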

Additional observations from a re-analysis of the deposited data

Results flagged for a closer look

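The short to long arm density ratio lay on opposite sides of 1 in the lines, 1.11 in OMM2.3 and 0.537 in 92.1. The distal to proximal density ratio at the division placed by the 92.1 counts was likewise 0.915 in OMM2.3 and 2.31 in 92.1. These differences were not tested, since each line had 1 library. The share of 92.1 peaks with IgG background at the genome-wide floor moved at the same place, from 74.2% to 45.8%, and its part in these ratios was not tested.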

How the results depend on the processing

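The division of chromosome 3 in 92.1 and the arm ratios kept their direction without 3 Mb either side of the arm boundary, in single-copy sequence and in windows of 38% to 42% GC, and 30 of 67 alternatives moved a value by less than its counting interval or, for a count, by less than 1.5 times. Under a q of at most 0.05, which left 5 and 2 peaks, the line ratio reversed to 0.40 (0.0381 to 2.44). The density relative to the other autosomes was 0.343 in OMM2.3, also reversed, and 0.130 in 92.1. The short to long arm ratio was then 0.787 (0.0658 to 6.87, reversed) and 0 (0 to 6.29). The ratio at the division was 0 (0 to 1.94) and 1.78 (0.0227 to 140). The shared share was 0%, the share near start sites 0% in each line and the listed genes with a peak 0 in each. Where an interval holds 1, the value shows no direction, also where it is marked reversed. Under a p of at most 1e-05 the same values were 5 for the line ratio and, relative to the other autosomes, 0.330 (reversed) and 0.589. For the arms they were 0.787 (0.163 to 3.32, reversed) and 0.161, and at the division 0 and 5.07. The shared share was 0%, with 10.0% and 12% near start sites and 0 and 4 listed genes. In single-copy sequence the line ratio was 1.46, the density of OMM2.3 relative to the others 1.39, the ratio at the division 2.43 in 92.1 and the shared share 1.88%. Against the median of the other 21 autosomes OMM2.3 stood at 1.44. In windows of 38% to 42% GC the arm ratio of 92.1 was 0.501. Windows of 5 Mb gave 25 of 40 called, all 25 of them lower, and the autosomal share at that width is not given here. An overlap of 50% of the shorter peak gave 1.38% shared, and summits within 100 bp 1.02%. Start sites within 1 kb took 7.40% and 8.66%, and those of protein-coding genes 11.2% and 12.6%. The causes were not tested. No paired analysis was possible because there was 1 library per group. The depth behind a peak, mostly 4 to 6 fragments, limits every single gene named.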

Other observations

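The 5 Mb window next to the arm boundary, at 90000001 to 95000000, was the densest of those before the division in 92.1, at 34.3 peaks per Mb, and had 29.5 in OMM2.3. Its peaks had the highest mean IgG background of the 92.1 windows before the division, at 2.65 fragments, and a mean of 7.28 A3B fragments per peak. Both means over these 167 peaks include that at chr3:93470455-93470755, with 401 fragments over a background of 236. They were not computed without it and need not describe the other peaks. In OMM2.3 the mean was 8.37 A3B fragments over a background of 2.06. The share at the background floor was 22.2% in OMM2.3 and 28.7% in 92.1.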
